A study of Mus musculus with 5 samples.

Results

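The major histocompatibility region of the mouse was taken as the 4 Mb of chromosome 17 from base 33500000 to 37500000 (mm9), and all CpGs measured there were kept. The interval was defined by position alone, though earlier results of these data were known when it was chosen. It held 6091 CpGs present in at least 1 of 5 deposited methylation tables, out of 1170580 on the autosomes. Of these, 5534 were present in all 5 tables and 5528 also lay under an upper limit on coverage, out of 1030056 autosomal CpGs that met both conditions. CpGs where 1 library stood apart from the other 4 were included.

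The measurements came from enhanced reduced representation bisulfite sequencing of LSK cells, sorted from bone marrow as Lin- Sca1+ cKit+ cells, the fraction in which blood stem cells and early progenitors are found. The 5 libraries were 2 from targeted C57BL/6 animals and 3 from wild-type C57BL/6 animals. The titles of the targeted libraries name a knockout and their genotype label reads +/-, so they are called targeted libraries 1 and 2 and the number of targeted alleles is left unstated. No treatment is named and no age is stated for these libraries. Whether libraries of 1 group stem from separate animals is not stated, and p-values therefore reflect a spread that may be technical. The tables hold no RNA, so the cell type was not checked against expressed markers. The study asked whether loss of the targeted gene alters DNA methylation in these cells.

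The region carries the histocompatibility genes, whose class I and class II products present peptides to T cells. Between them lies the class III segment, with complement, cytokine and housekeeping genes, and further framework genes flank both ends. Methylation of CpGs in a promoter is associated with a silent gene, and CpG-dense promoters are unmethylated in most cell types. Class I genes are expressed on nearly all nucleated cells, whereas class II expression is largely a property of antigen-presenting cells.

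Per library, between 5620 and 6027 CpGs of the interval were present. The median depths there were 92 and 116 reads per CpG for the targeted libraries and 108, 114 and 108 reads for wild-type libraries 1 to 3. The assay starts from cuts at CCGG, so it sees CpG-rich fragments, and most of the CpG-poor sequence in the interval was not measured. No annotation of mm9 was used here. Promoters were therefore located by a match of CpG spacing: the CG positions of the 300-base RefSeq promoters (GRCm38.p6; 250 bases before to 50 after a start site) were fitted onto the measured mm9 positions. Windows with 1 fit in the RefSeq gene order were kept. This placed 89 windows of 68 genes, and all 89 needed the same offset between the builds, which the search did not use. A gene without a placed window is not described, and its absence says nothing of its methylation.

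Promoters of low and of partial methylation are printed as the 250 bases before the start site, because they show which CpGs the levels below rest on. Each is given 5′ to 3′ on the strand of its gene, in lower case, with the CpGs measured in at least 1 library in capitals. The letters are those of RefSeq for GRCm38.p6, and the mm9 positions come from the placement. The class I heavy chain genes H2-K1 (chr17:34137279-34137528, minus strand) and H2-D1 (chr17:35399789-35400038, plus strand) encode the classical antigen-presenting molecules of this strain. H2-Q4 (chr17:35516312-35516561, plus strand) is a class Ib relative. The other 3 are Slc44a4 (chr17:35051161-35051410, plus strand), Ddr1 (chr17:35838990-35839239, minus strand) and Brd2 (chr17:34256846-34257095, minus strand), which encode a choline transporter-like protein, a collagen receptor kinase and a bromodomain chromatin reader.
H2-K1: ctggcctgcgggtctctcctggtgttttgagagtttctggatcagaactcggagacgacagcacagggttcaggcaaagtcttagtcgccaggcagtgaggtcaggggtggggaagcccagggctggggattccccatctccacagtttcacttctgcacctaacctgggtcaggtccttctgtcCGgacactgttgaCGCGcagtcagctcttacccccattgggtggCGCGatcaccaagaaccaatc
H2-D1: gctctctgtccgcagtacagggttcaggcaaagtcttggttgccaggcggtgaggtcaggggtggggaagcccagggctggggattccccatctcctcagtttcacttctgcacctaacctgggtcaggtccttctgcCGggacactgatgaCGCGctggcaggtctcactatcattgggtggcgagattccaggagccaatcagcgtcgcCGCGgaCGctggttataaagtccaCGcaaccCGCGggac
H2-Q4: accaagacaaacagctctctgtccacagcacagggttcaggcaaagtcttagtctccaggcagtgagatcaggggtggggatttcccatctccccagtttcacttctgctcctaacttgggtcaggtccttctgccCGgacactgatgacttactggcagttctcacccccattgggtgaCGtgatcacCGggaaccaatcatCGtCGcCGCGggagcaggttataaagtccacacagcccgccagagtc
Slc44a4: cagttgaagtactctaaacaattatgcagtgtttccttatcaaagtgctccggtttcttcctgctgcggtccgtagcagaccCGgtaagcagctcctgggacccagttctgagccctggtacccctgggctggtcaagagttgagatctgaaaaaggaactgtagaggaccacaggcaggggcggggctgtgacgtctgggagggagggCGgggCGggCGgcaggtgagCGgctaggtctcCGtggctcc
Ddr1: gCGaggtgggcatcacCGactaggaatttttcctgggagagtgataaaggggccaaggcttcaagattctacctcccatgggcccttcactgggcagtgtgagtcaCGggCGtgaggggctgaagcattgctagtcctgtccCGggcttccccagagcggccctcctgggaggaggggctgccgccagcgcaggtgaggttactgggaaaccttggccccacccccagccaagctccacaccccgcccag
Brd2: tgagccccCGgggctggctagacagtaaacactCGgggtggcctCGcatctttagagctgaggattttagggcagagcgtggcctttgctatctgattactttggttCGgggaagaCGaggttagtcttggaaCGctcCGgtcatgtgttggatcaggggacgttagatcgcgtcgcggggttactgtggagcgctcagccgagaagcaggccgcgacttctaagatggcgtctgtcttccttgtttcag

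Both classical class I promoters were at or near 0% in every library that measured them. In H2-D1, 14 CpGs were measured in all 5 libraries, which averaged 0.0% and 0.0697% in the targeted libraries (1 and 2), against 0.0399%, 0.0% and 0.0698% in wild type. These CpGs had 42 to 255 reads each, and the highest single value was 0.976%. The libraries overlapped fully. In H2-K1, 5 CpGs were measured in 4 libraries and none in wild-type library 1. All 5 were at 0% in each of the 4. With 10 reads in targeted library 2, a count of 0 allows a level of up to 30% (3 of 10 reads), and with 26 reads in wild-type library 3 it allows up to 11.5%, so small levels in H2-K1 were not detectable at this depth. Reads carried no molecular identifiers, and such limits cover counting error only.

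Class I promoters are known for an enhancer in which an NF-kappaB site lies close to an interferon-stimulated response element. The longest stretch shared letter for letter by the printed H2-K1 and H2-D1 promoters spans 47 bases, and the next spans 40 bases; they are printed because they show how alike the sequences of these promoters are. They begin 155 and 107 bases before the start site in H2-K1 and 201 and 153 bases before it in H2-D1, and H2-K1 and H2-D1 are the only genes of the RefSeq promoter table with either stretch in the 250 bases.
Shared stretch of 47 bases: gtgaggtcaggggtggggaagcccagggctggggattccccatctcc
Shared stretch of 40 bases: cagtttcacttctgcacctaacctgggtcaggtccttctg

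Neither stretch holds a CpG, so methylation at CpGs is read only on their flanks. TGACG, the core of a cAMP-response element, contains a CpG. Searched on both strands of the 250 bases, it occurs in H2-K1, H2-D1, H2-Q4 and Slc44a4 and in 17.8% of 32851 RefSeq promoters. Its CpG was not measured in Slc44a4 and was measured in the other 3. That of H2-D1, at position 35399941, was at 0.0% in all 5 libraries over 112 to 165 reads. That of H2-Q4, at 35516492, was at 0.0% in 4 libraries and 0.282% in wild-type library 2, over 173 to 366 reads. That of H2-K1, at 34137329, was at 0.0% over 10 to 26 reads in 4 libraries. CCGG, the site cut in the assay, occurs in all 6 printed promoters and in 47.1% of the RefSeq promoters. These matches describe letters and say nothing of what is bound.

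Across the 68 genes, 61 placed promoters were under 2% in every library that measured them, 64 were under 10%, and 4 were over 10%. Windows that overlap share CpGs, as those of Tcf19 and Cchcr1 do, and a gene with several windows is given by the 1 with the most measured CpGs. Of the 17 class Ib genes listed, 4 were placed. H2-Q4, H2-Q6 and H2-Q7 were at 0 to 1.24% in every library. H2-Q10, which encodes a secreted liver class I protein, was at 4.07% and 4.82% in the targeted libraries, against 5.14%, 3.66% and 6.11% in wild type. Its 6 measured CpGs all lay between 8 and 40 bases after the start site. H2-Q genes are close copies of one another, so the placement of reads among them is uncertain. Of 9 class II genes, only the promoter of H2-DMa, a peptide-loading chaperone subunit, could be placed. It was at 0.0% and 0.408% in the targeted libraries, against 0.0%, 0.146% and 0.0% in wild type (5 CpGs). The same 5 CpGs fall in the second placed window of Brd2. None of the 5 antigen-processing genes was placed.

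In the class III segment, 1 of 9 complement and cytokine genes was placed. This was Ltb, the lymphotoxin beta chain, at 0.959% and 0.436% in the targeted libraries, against 1.94%, 1.19% and 0.228% in wild type. Of the 43 other class III genes, 18 were placed and 16 of these were under 2% in every library, among them the histone methyltransferase gene Ehmt2, at 0.0946 to 0.302%. Of 26 genes on the class II side of the complex, 13 were placed and 12 were under 2% in every library, with Brd2 as the exception. Of 37 framework genes on the class I side, 20 were placed and 18 were under 2%. The median wild-type level over all 68 promoters was 0.0882%.

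A few promoters departed from this. Among them, the windows of Cdsn, Ddr1 and Gm4577 were placed with at least 5 measured CpGs, a rule added after the data were seen. The promoter of Cdsn, the corneodesmosin of cornified skin, was methylated in all libraries: 90.2% and 85.7% in the targeted libraries, against 91.9%, 84.3% and 87.2% in wild type (5 CpGs). Slc44a4 was partly methylated, at 63.0% and 59.5% in the targeted libraries, against 55.1%, 54.2% and 61.7% in wild type (8 CpGs with 12 to 409 reads each). Along Slc44a4 the CpG 9 bases before the start site was at 33.3 to 55.0% and that 168 bases before it at 66.7 to 100%. In both genes the groups overlapped. Ddr1 was at 61.6% and 52.4% in the targeted libraries, against 51.1%, 47.6% and 50.2% in wild type (5 CpGs), and the groups did not overlap. Its CpG farthest upstream was at 76.7 to 88.1% and that at 108 bases upstream at 23.3 to 35.3%. Gm4577, a predicted gene beside Ddr1, was at 28.8% and 24% in the targeted libraries, against 24%, 20.3% and 22.7% in wild type. Targeted library 1 was the highest of the 5 libraries in Slc44a4, Ddr1 and Gm4577. Vwa7, which encodes a von Willebrand factor A domain protein, was between these and the unmethylated majority, at 7.23 to 9.83%.

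**Figure D1:**
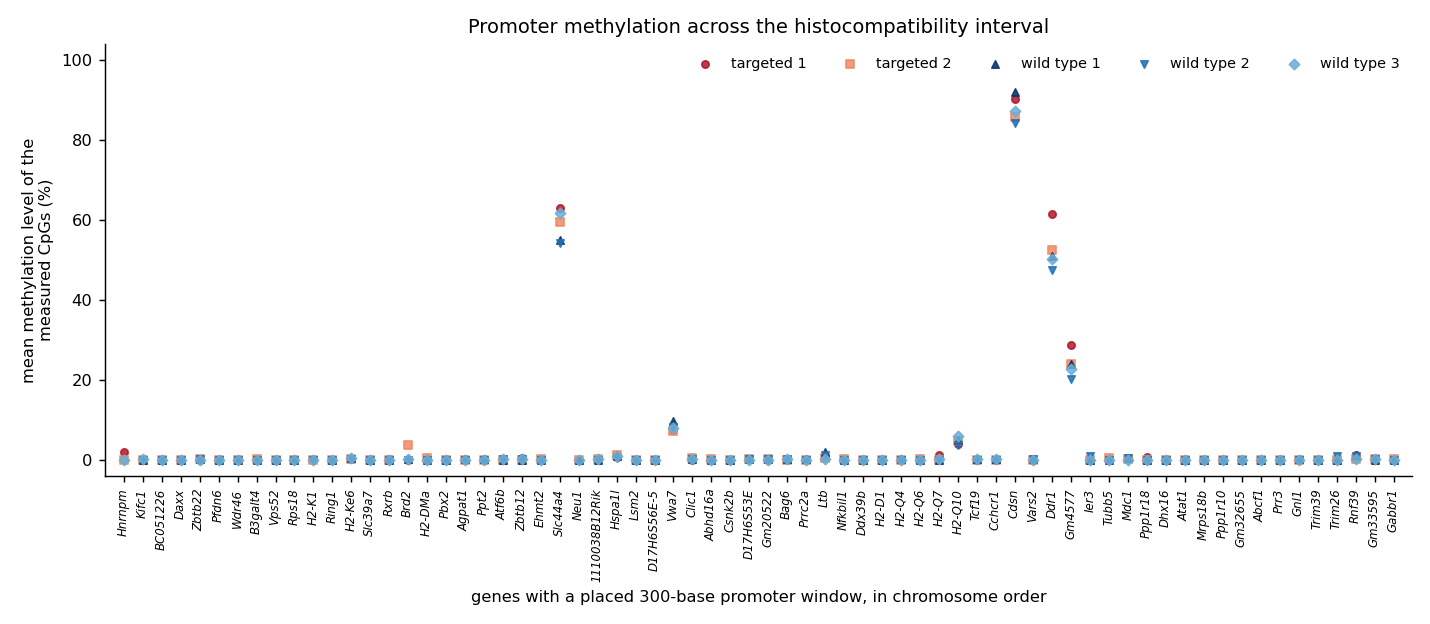
Mean methylation level (%) of the measured CpGs in the placed 300-base promoter window of each of 68 genes, in chromosome order, with 1 point per library. Every library that measured the window lies near 0 for 61 genes, and Slc44a4, Cdsn, Ddr1 and Gm4577 stand above 10%.

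The largest departure among the low promoters was in Brd2. Of its 2 placed windows, the 1 printed above had 7 measured CpGs. These were at 0.0803% in targeted library 1, 3.7% in targeted library 2, against 0.268%, 0.0% and 0.198% in wild type. The other window (chr17:34259503-34259802) overlaps that of H2-DMa and was at 0.0% and 0.408% in the targeted libraries, against 0.0%, 0.146% and 0.0% in wild type. Brd2 lies in a run of 117 consecutive measured CpGs under 20% in wild type, from 34253873 to 34259753, which ends in the promoter of H2-DMa. Over the run, targeted library 2 had a mean level of 2.23%, against 0.408% in targeted library 1 and 0.687%, 0.548% and 0.36% in the wild-type libraries. It was the highest of the 5 libraries at 60 of the 117 CpGs. Raised levels of targeted library 2 were found in several places of the run. From 34255500 to 34255975, targeted library 2 was at 2.93%, with a methylated read at 48 of 50 CpGs, against 0.083% in targeted library 1 (6 CpGs) and 0.729%, 0.169% and 0.0832% in wild type (20, 11 and 5 CpGs). CpGs there had 12 to 214 reads each in targeted library 1 and 21 to 411 reads in targeted library 2. At 34256956, 34256961 and 34256978, which are 3 of the 7 CpGs of the promoter, targeted library 2 was at 5.36% over 56 reads each. The other 4 libraries were at 0.0 to 1.09% at these 3 CpGs. From 34257050 to 34257957, targeted library 2 was at 2.73%, with a methylated read at 14 of 16 CpGs. The other 4 libraries were at 0.0351 to 0.162% in that stretch. Between 34258007 and 34258472, targeted library 2 was at 0.118% (21 CpGs), within the range of 0.0 to 0.209% of the others. CpGs a few bases apart are read from the same molecules, so these CpGs are not separate observations, and 1 library carries the difference.

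**Figure D2:**
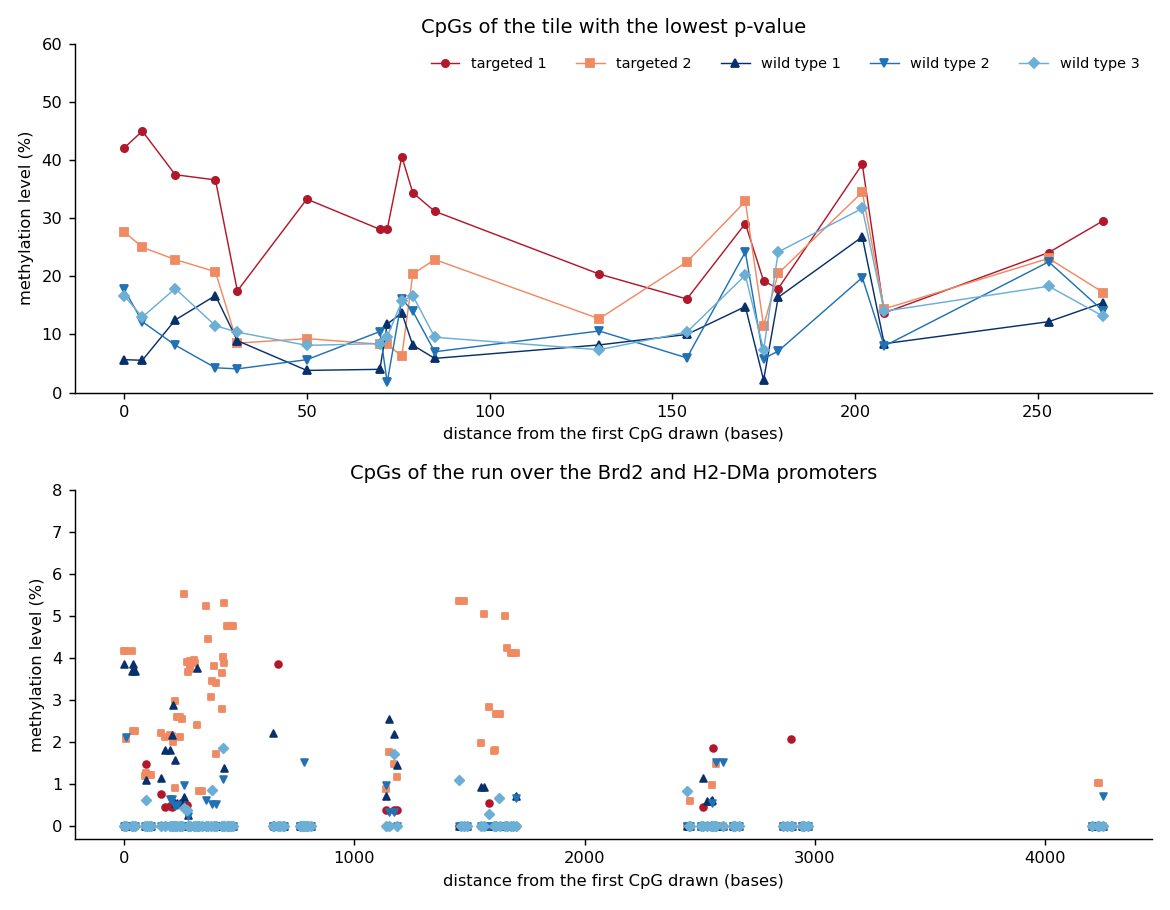
Methylation level (%) of single CpGs in each library against the distance in bases from the first CpG drawn. In the upper panel, 20 CpGs of the tile at 37125001 are at 29.2% and 18.5% on average in targeted libraries 1 and 2 and at 10.6 to 14.2% in wild type; in the lower panel, targeted library 2 has most of the raised values over Brd2 and all libraries are low towards H2-DMa (2 CpGs at the left end of the run, at 13.1 to 24.6%, are not drawn).

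Across its length the interval was less methylated than the other autosomal CpGs measured. Averaged over its CpGs it was at 27.8% and 27.2% in the targeted libraries (1 and 2), against 27.0%, 27.0% and 26.9% in wild type. In the same order the levels were 35.1%, 34.4%, 34.3%, 34.2% and 34.2% at the other autosomal CpGs. Among 533 autosomal windows of 4 Mb with at least 500 measured CpGs, 56 had a lower wild-type mean and 16 had more CpGs than this interval. In wild type, 68.4% ± 0.136 (SD, n = 3) of its CpGs were under 20%, against 61.3% ± 0.0229 at the other autosomal CpGs. The share over 80% was 23.9% ± 0.0996 against 31.6% ± 0.0608. These are descriptions of 1 interval, and the difference from other windows was not tested.

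The interval and the other autosomal CpGs differed in their mix of CpG densities and in the levels at most densities. Tiles of 1000 bases were grouped by 1 to 2, 3 to 9, 10 to 29 and 30 or more measured CpGs. In this order they held 4.5%, 25.3%, 30.1% and 40.1% of the CpGs of the interval. They held 8.94%, 30.1%, 21.8% and 39.1% of the other autosomal CpGs. The part of this mix in the lower mean was not tested. In tiles of 1000 bases with 1 to 2 measured CpGs the wild-type level was 70.0% ± 0.442 (SD, n = 3) in the interval and 82.5% ± 0.133 at the other autosomal CpGs. With 3 to 9 CpGs it was 64.9% ± 0.258 against 73.6% ± 0.119. The order turned at 10 to 29 CpGs, with 22.3% ± 0.106 against 18.2% ± 0.0283. At 30 or more CpGs the levels were 1.72% ± 0.0841 and 1.74% ± 0.0239, closer than the spread between the wild-type libraries.

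Along the interval, CpG density and level changed with the gene content. The stretch from Kifc1 to H2-DMa, which holds Daxx, Ring1, Rxrb and Brd2, had 424.0 measured CpGs per 100 kb at a wild-type library level of 21.2 to 21.3%. From H2-DMa to Pbx2, where the RefSeq order puts most class II genes, there were 65.6 CpGs per 100 kb at 35.0 to 35.5%. The class III segment from Pbx2 to H2-D1 held 1861 CpGs at 29.9 to 30.1%. From H2-D1 to Tcf19, the stretch of the H2-Q genes, 385 CpGs were at 15.5 to 15.8%, the lowest of the 10 stretches. Between Trim39 and Trim26, where the RefSeq order puts the H2-M10 genes, only 18.7 CpGs were measured per 100 kb, at 41.1 to 41.4%, the highest of the 10.

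The longest run of consecutive measured CpGs under 20% in wild type held 134 CpGs from 36033834 to 36054170 and covers the promoters of Atat1, Mrps18b and Ppp1r10, which encode a tubulin acetyltransferase, a mitochondrial ribosomal protein and a phosphatase regulator. All 5 libraries were at 0.0424 to 0.153% over these CpGs, and the largest distance between neighbours among them was 12310 bases. A run of 103 CpGs over Ehmt2, from 35035203 to 35036855, was at 0.0858 to 0.196%. Partly methylated runs were short. The longest held 15 CpGs from 34782889 to 34783466, before the promoter of Atf6b, an endoplasmic reticulum stress sensor. Its level was 62.0% and 52.4% in the targeted libraries, against 40.9%, 62.4% and 55.5% in wild type. Wild-type library 1 was the low one here, and the groups overlapped.

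Of 69 tiles with at least 20 measured CpGs, 55 were under 2% in every library, 5 were over 10% in wild type and 0 were over 80%. The 5 least methylated, led by the tile at 36053001, were at 0.291% or below in every library. The most methylated was the tile at 34809001 (35 CpGs), at 38.7% and 35.1% in the targeted libraries, against 34.8%, 40.1% and 37.2% in wild type. The adjoining tile at 34808001 (62 CpGs) was at 16.6% and 12.8% against 12.1%, 14.4% and 12.7%. Both lie in the class III segment, as does the tile at 34974001 (59 CpGs), at 13.3 to 14.3%. The tile at 34162001, beside Ring1, was at 16.8 to 17.7% (21 CpGs). Its CpGs ranged from 0.0% to over 93% in every library, so its mean joins an unmethylated and a methylated part. The fifth was the tile at 37125001, described with the tests.

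**Figure D3:**
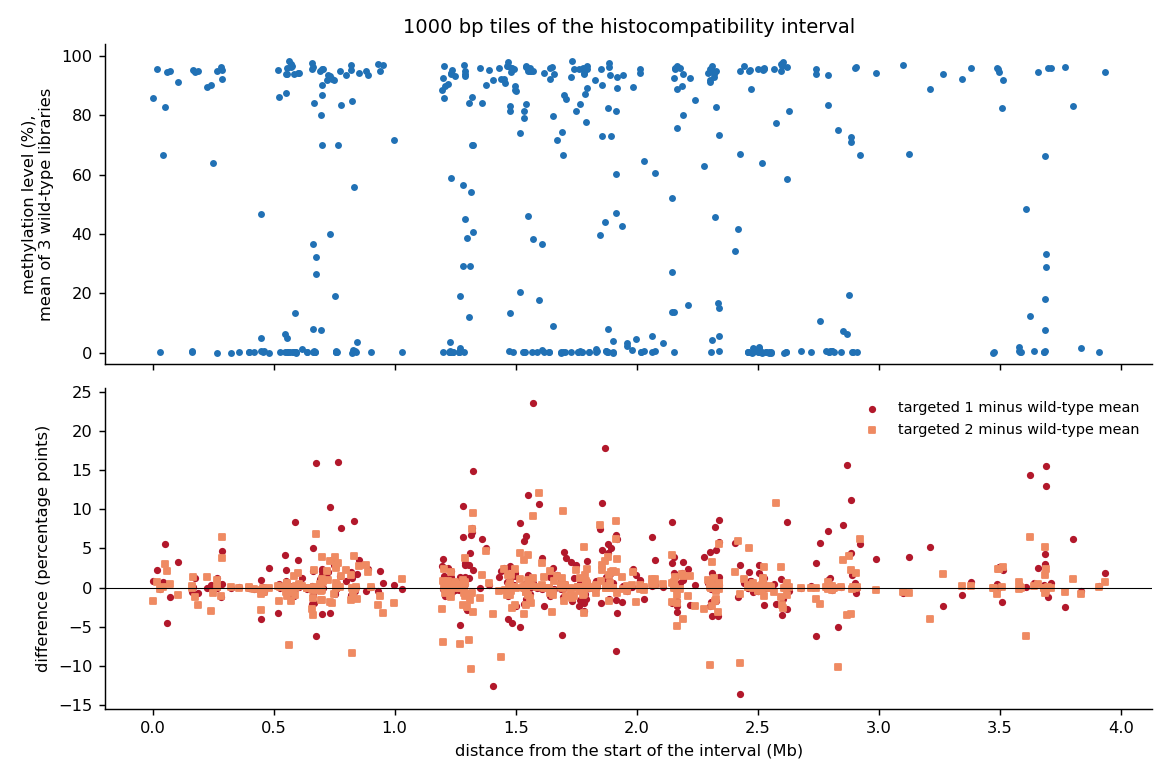
The upper panel gives the methylation level (%) of each 1000-base tile with at least 3 measured CpGs as the mean of 3 wild-type libraries, along the distance in Mb from the start of the interval. The lower panel gives each targeted library minus that mean in percentage points, with targeted library 1 reaching higher at partly methylated tiles than targeted library 2.

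The targeted and wild-type libraries were then compared. The mean over the 5528 CpGs was 27.5% ± 0.449 (SD, n = 2) in targeted and 27.0% ± 0.0288 (SD, n = 3) in wild-type libraries, a difference of 0.519 points, beside 0.551 points over all autosomal CpGs. The groups did not overlap, but targeted library 1 carried most of this: the difference was 0.201 points without targeted library 1 and 0.836 points without targeted library 2. Weighted by reads the levels were 29.6% and 19.0% in the targeted libraries, against 19.5%, 19.6% and 20.8% in wild type. Targeted library 2 then lay below all wild-type libraries. Targeted library 1 also spread its reads differently: CpGs under 20% had 0.968 times the median coverage of CpGs over 80% there, and 1.48 to 1.67 times in the other 4 libraries. The part of this coverage difference in the result was not tested.

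By class of level, targeted library 1 departed most at partly methylated CpGs, and targeted library 2 did not follow it closely. At the 142 CpGs with a mean of 20 to 40% over all 5 libraries, the targeted libraries were at 34.7% and 29.6% against 27.3% ± 0.889 (SD, n = 3) in wild type. At the 134 CpGs of 40 to 60% they were 55.3% and 49% against 48.5% ± 0.464. At the 145 CpGs of 60 to 80% they were 75.0% and 71.2% against 70.8% ± 0.786. CpGs under 20% were at 1.22% and 0.945% against 0.882% ± 0.0287. Of the 421 CpGs from 20 to 80%, targeted library 1 was the highest of 5 at 193, or 45.8%. On all autosomes it was highest at 46.8% of such CpGs, so the share in the interval is near the background.

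**Figure D4:**
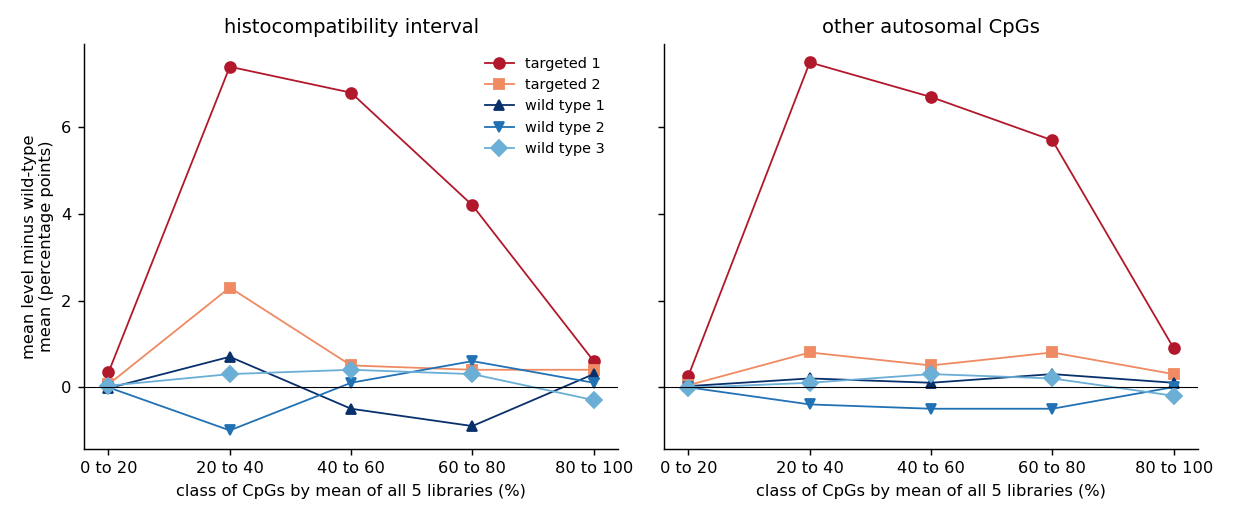
Mean level of each library minus the wild-type mean (percentage points) for CpGs grouped by their mean level over all 5 libraries (%), in the histocompatibility interval and at the other autosomal CpGs. Targeted library 1 stands above the other 4 libraries between 20 and 80% in both panels.

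No tile and no single CpG of the interval passed the test of targeted against wild type. With edgeR's quasi-likelihood test, fitted over all autosomal tiles, 0 of 436 tested tiles had a Benjamini-Hochberg adjusted p under 0.05 with a difference of at least 10 points. Over all autosomal tiles 0.0166% were called. For CpGs the smallest difference was set at 25 points, and 0 of 3689 tested were called, beside 0.00885% of all autosomal CpGs tested. At an unadjusted p under 0.05 there were 30 tiles, or 6.88% of those tested, beside 6.32% on all autosomes. Of these tiles 24 were higher and 6 lower in the targeted libraries, beside 5.34% and 0.976% of all autosomal tiles. There were 115 such CpGs, or 3.12%, beside 2.97%. They comprised 100 higher and 15 lower CpGs, beside 2.29% and 0.679% of all autosomal CpGs tested. With limma, 0 tiles and 0 CpGs of the interval were called, and 35 tiles and 181 CpGs had an unadjusted p under 0.05, beside 6.48% of tiles and 5.24% of CpGs on all autosomes. The median difference was 0.103 points over the tested tiles of the interval and 0.28 points over all tested tiles.

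The 5 tiles of lowest p had the following values, as levels over the summed reads of their CpGs. In the tile at 37125001, between the placed promoters of Trim26 and Gabbr1, 20 CpGs were at 26.7% and 18.8% in the targeted libraries, against 10.9%, 12.5% and 13.7% in wild type. The groups did not overlap, with a difference of 10.4 points (adjusted p = 0.789 by edgeR). The tile at 35069001, near the placed Neu1 window, held 5 CpGs at 62.0% and 47.6% in the targeted libraries, against 41.1%, 38.9% and 35.2% in wild type (adjusted p = 0.789 by edgeR). Neu1 encodes a lysosomal sialidase, and its promoter was at 0.0% in the 4 libraries that measured it. In the tile at 34876001, 4 CpGs were at 95.1% and 94.8% against 87.7%, 90.8% and 91.8%. The remaining pair lay over promoters and differed by under 2 points. The tile at 35975001, over the beta-tubulin gene Tubb5, was at 0.181% and 0.186% against 0.0%, 0.0478% and 0.0%. The tile at 34257001, over Brd2, was at 0.0527% and 2.56% against 0.147%, 0.0463% and 0.112%. All 5 had an adjusted p of 0.789 (edgeR). Without targeted library 2 the direction of the Brd2 tile turned (edgeR adjusted p = 0.843), and without targeted library 1 its adjusted p was 0.0502. Adjusted p-values of the Brd2 tile ranged from 0.0502 to 0.915 over the alternatives, and those of the tile at 37125001 from 0.308 to 1.0.

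At 7 CpGs, or 0.127% of the interval, 1 library stood at least 25 points from the nearest of the other 4 while those spanned at most 20 points. The share over all autosomal CpGs was 0.117%. Targeted library 1 was the library apart at 4 of them (0.0724% of the interval, beside 0.0532% on all autosomes). Wild-type library 1 was apart at 2 (0.0362% beside 0.025%) and wild-type library 2 at 1 (0.0181% beside 0.0158%). The other libraries were apart at 0, beside autosomal shares of 0.0139% for targeted library 2 and 0.00932% for wild-type library 3.

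The 4 CpGs of targeted library 1 had 36 to 108 reads in that library. At 35069105, in the tile beside Neu1, it was at 75.9% (95% Wilson interval 67.1 to 83.0) and the other 4 were at 40.5 to 48.9%. Its 3 neighbours within 50 bases were at 50.6% in targeted library 1 and 37.7% on average in the others. At 35643528 it was at 64.7% (55.1 to 73.3) and the others were at 26.1 to 33.3%. There the 2 CpGs within 50 bases were at 59.1% in targeted library 1 and 57.7% on average in the others, so the gap was not shared by the neighbours. At 33776995 it was at 72.2% (56.0 to 84.2), against 38.2 to 44.7%, with no other measured CpG within 50 bases. At 34907244 it was lower, at 53.6% (40.7 to 66.0), against 83.1 to 92.1%. The 2 neighbours of that CpG were at 92.0% in targeted library 1 and 92.8% in the others.

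The 3 CpGs of wild-type libraries rested on few reads. At 34222119, wild-type library 1 was at 54.5% over 11 reads (95% Wilson interval 28.0 to 78.7), against 88.0 to 95.5%. At 34973320 it was at 30.8% over 13 reads (12.7 to 57.6), against 0.0 to 5.0%. At 34821381, wild-type library 2 was at 50.0% over 10 reads (23.7 to 76.3), an interval that overlaps the 75.0 to 87.5% of the others. With at least 20 reads in every library, 4 such CpGs were left.

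One place in the interval depended on the upper limit on coverage, which removed strand entries among the highest 0.1% of each library. The tile at 36368001, between Gnl1 and Trim39, held 36 CpGs, and 5 of them, from 36368236 to 36368272, had 6144 to 14233 reads in each library. Nearly all of these reads lay on the reverse strand. Without the limit, the 5 CpGs were at 23.2% and 16.6% in the targeted libraries, against 13.3%, 12.7% and 13.6% in wild type. The groups did not overlap, at 19.9% ± 4.65 (SD, n = 2) against 13.2% ± 0.469 (SD, n = 3). At 10 further CpGs, from 36368391 to 36368427, the strands differed at 9, and at 36368393 both strands were at 0.0% in every library. Over the 10 CpGs the forward strand was at 0.0 to 0.375% on average in every library over 69 to 179 reads. The reverse strand was at 44.1% and 31.1% in the targeted libraries, against 27.0%, 28.1% and 29.2% in wild type, over 244 to 584 reads.

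The limit cut this tile unevenly. It stood at 393 and 391 reads in the targeted and 370, 391 and 310 reads in the wild-type libraries. The reverse-strand entries of these 10 CpGs were therefore kept in targeted library 1 and wild-type library 3 and removed in the other 3. With the limit the tile was at 15.9% and 3.43% in the targeted libraries, against 2.17%, 4.41% and 11.3% in wild type. Without the limit it was at 17.9% and 11.3% against 9.15%, 11.5% and 12.3%. The only CpGs of the interval called when 1 library was left out lie here. These are 36368396 and 36368427 without targeted library 2 (edgeR adjusted p = 0.0371 and 0.000419) and 36368427 without wild-type library 3 (edgeR adjusted p = 0.00443). At 36368427 the levels with the limit were 62.7% and 0.571% in the targeted libraries, against 0.0%, 0.0% and 41.9% in wild type, high where the reverse-strand entries were kept. Without the limit both CpGs drew on all entries, and 0 CpGs of the interval were called in the fit of all 5 libraries (115 CpGs had an unadjusted p under 0.05 with it and 118 without it).

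**Figure D5:**
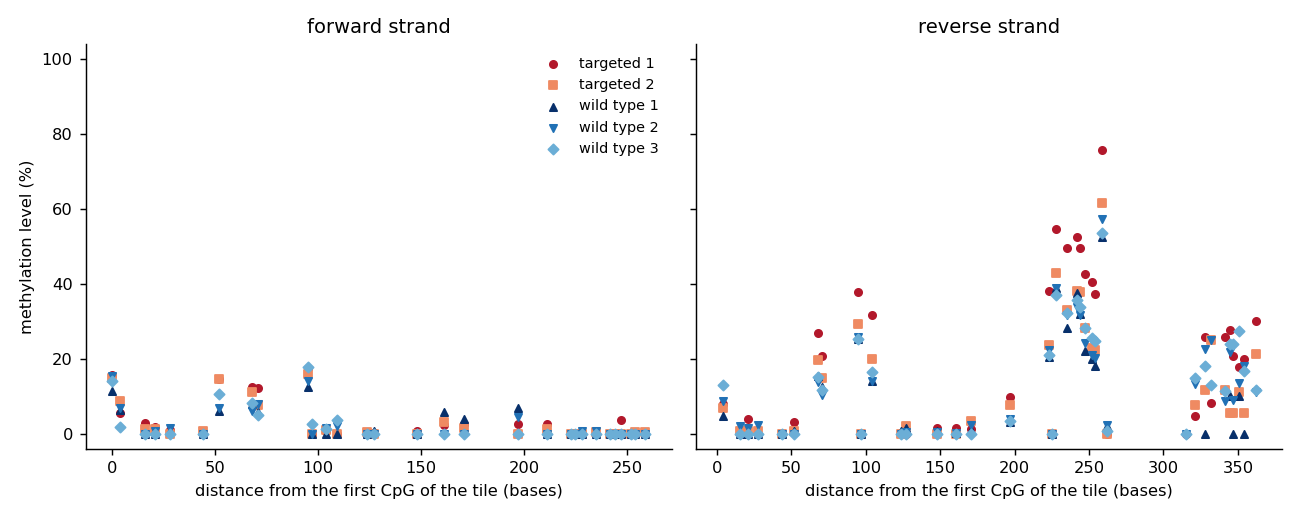
Methylation level (%) of each CpG of the tile at 36368001 by strand and library, without the coverage limit, against the distance in bases from the first CpG of the tile. At 9 CpGs between positions 36368391 and 36368427 the reverse strand lies above the forward strand in all 5 libraries and is highest in targeted library 1. The same holds at 36368236, 36368239, 36368263 and 36368272, and elsewhere both strands vary from CpG to CpG.

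Strand differences of another form recurred across the interval. Both strands were measured in all 5 libraries at 1406 CpGs, and at 52 of them the strands differed by at least 20 points on average, beside 3.2% of autosomal CpGs. Of these, 9 lay in the tile at 36368001. The other 43 formed 22 pairs (1 CpG is in 2 pairs), each with the forward strand higher at the left CpG and the reverse strand higher at the right CpG. The pairs were 43 to 50 bases apart, with a median of 48.0, and on the autosomes 99.8% of 3985 pairs found within 60 bases were 45 to 50 bases apart. The labels give a read length of 50 bp. The lower strand of these CpGs had a median level of 0.805% and the higher strand one of 96.2%. With the strands merged, 42 of the 43 were among the 421 CpGs of the interval from 20 to 80%. In the pair at 33750866 and 33750915, for example, forward and reverse strands differed by 92.3 to 100 points in each library. The tile at 34809001 holds 1 such pair.

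Strand positions with at least 50 reads in 4 libraries and no entry in the fifth were counted last. In targeted library 1, 6 of 4645 such positions were absent, beside 0.0265% on all autosomes. In each of the other 4 libraries 0 were absent, beside 0.00101 to 0.00412% on all autosomes. No position of the interval was absent from both targeted libraries among 4691 with at least 50 reads in all wild-type libraries. On all autosomes 0.0425% of such positions were absent from both. Of the 6, 5 were forward-strand positions from 35226226 to 35226258, in the tile over the Abhd16a promoter, and had 55 to 86 reads in the other 4 libraries. Abhd16a encodes a phosphatidylserine lipase. On the reverse strand there, 4 of the 5 CpGs had 21 to 22 reads in targeted library 1. The sixth was the reverse-strand position 34066907, with 109 to 190 reads in the other libraries and 81 reads on the forward strand of targeted library 1. Tables leave out positions under 10 reads, and targeted library 1 had the lowest median coverage of the 5. The part of depth in these absences was not tested.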

How the data were processed

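DNA from LSK cells was cut with MspI, size-selected, bisulfite-converted and sequenced, per the labels' protocols. The submitters' processing notes name Bismark, with no version, and the builds mm9 and NCBIM37. The authors' deposited tables give, per the file headers, the coverage of each CpG cytosine by strand as a read count and the percent of it read as C and as T. Entries numbered 1354420 to 1473602 per library, with a lowest coverage of 10. Read counts were recovered by rounding; 99.97% came within 0.01 of a whole number. The highest 0.1% of strand entries of each library was removed and strands were merged.

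Single CpGs, and tiles of 1000 bp holding 3 or more, entered edgeR 4.0.16 (quasi-likelihood test) as methylated and unmethylated counts over all autosomes, with a factor per library, a common dispersion and Benjamini-Hochberg adjustment. The test was checked on simulated data. Alternatives included limma 3.58.1 with 1 read added, a coverage minimum of 20, no upper limit, other tile sizes and minimums, each library left out and a replicate block.

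Promoter windows needed at least 6 measured CpGs and a single fit on chromosome 17 (67 windows). After the data were seen, windows with at least 5 between placed neighbours were added (22 windows). Those of H2-K1, H2-DMa, Cdsn, Ddr1 and Gm4577 are among these 22. A coverage ratio, a strand check and an alternative without CpGs of differing strands were also added then. The interval, gene lists and rules for named tiles and CpGs were chosen with earlier results of these data known. Named were the stand-apart CpGs, the 5 tiles of lowest p, the 5 most and least methylated dense tiles and the longest runs. The Brd2 stretches, the tile at 36368001 and the printed promoters were picked once their values had been seen. The targeted gene is not reported here.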

Additional observations from a re-analysis of the deposited data

Results flagged for a closer look

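In data left out of the main measurement by the coverage limit, 6 CpGs of the interval lay over the limit, all beside the H2-Q6 and H2-Q7 windows. At 1 of them, 35562221, both targeted libraries were above all wild-type libraries, at 2.79% and 0.81% against 0.0%, 0.329% and 0.292%, over 205 to 342 reads. Only wild-type library 3, with 342 reads against a limit of 310, was over its limit at this CpG. The autosomal share of such CpGs among those dropped by the limit was not counted. Among 436 tiles of the interval, both targeted libraries were above all wild-type libraries in 67 and below them in 33. The autosomal shares of such tiles were not counted, so these counts cannot be read as a trait of the interval. Over all autosomal CpGs the targeted mean was also higher, by 0.551 points. Placement of reads among the H2-Q genes is uncertain.

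The 5 CpGs of the tile at 36368001 with over 5000 reads were 6.71 points higher in the targeted than in the wild-type libraries, with targeted library 1 at 23.2% and targeted library 2 at 16.6%. These reads too had been removed by the limit.

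In targeted library 1, 6 of 4645 strand positions with at least 50 reads in the other 4 libraries had no entry. The share on all autosomes was 0.0265%. In the other libraries 0 such positions were absent, beside 0.00101 to 0.00412% on all autosomes. All of the 6 but 34066907 lay on the forward strand from 35226226 to 35226258.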

How the results depend on the processing

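The count of tiles called in the interval was 0 under all 13 alternatives run. The count of called CpGs was 0 to 2 with a library left out, with the only calls in the tile at 36368001, and 0 under the others. The mean difference of 0.519 points ranged from 0.201 to 0.836 points with a library left out and was 4.36 points with CpGs weighted by reads. The share of CpGs from 20 to 80% was 0.28 points higher in the targeted libraries (0.0904 to 0.47 points with a library left out), beside -0.271 points at the other autosomal CpGs, and lower in the interval too, at -0.534 points, when 10 to 90% counted as partly methylated. Without CpGs whose strands differ by 20 points, an alternative added after seeing the data, both differences kept their direction (0.501 and 0.247 points). CpGs with a library apart numbered 7, against 4 at a coverage minimum of 20 and 0 at a gap of at least 40 points. Strand positions absent from 1 library numbered 6, against 20 at 30 reads and 1 at 100 reads. For the tile at 34257001 the sign turned without targeted library 2, with an edgeR adjusted p of 0.843 (0.0502 to 0.915 with a library left out). With promoter windows of at least 6 measured CpGs only, 49 of 53 genes were under 2%, against 61 of 68. The causes were not tested.

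With the replicate number of the titles as a block, 0 tiles and 0 CpGs were called. At 9 CpGs of the tile at 36368001 the adjusted p under the block was below 0.05 (lowest 5.78e-06) with differences under 25 points. Across autosomal tiles, deviations of targeted and wild-type library 1 correlated at 0.000509 and those of library 2 at 0.0668. With 2 targeted libraries, the deviations of 1 are those of the other with the sign turned. These correlations therefore cannot decide whether the replicate numbers pair the libraries.

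Depth limits the lowest values: at 10 reads a count of 0 allows up to 30%. With 2 targeted libraries, 1 of which stood apart at partly methylated CpGs, small shared differences could not be resolved.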
